A study of Mus musculus with 27 samples.

Results

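The genes described here are 10 of the 54446 genes counted in the series: the cytokine ligands Il7, Tnfsf13b, Flt3l, Il33, Il15, Csf1, Il34 and Kitl, and the receptor genes Il7r and Il1rl1. They were taken as a list of symbols for cytokines by which stromal cells keep leukocytes alive, and all 10 were counted. Stromal cells of lymphoid tissue secrete such cytokines, and leukocytes read them through surface receptors. Interleukin-7 keeps naive T cells and innate lymphoid cells alive, BAFF (the product of Tnfsf13b) does so for mature B cells, and the CSF1 receptor ligands do so for macrophages. Fibroblastic reticular cells (FRCs), the network-forming stroma of T cell zones in lymph nodes, are a textbook source of interleukin-7 and BAFF. Not every member acts on lymphocytes: Csf1 and Il34 act on macrophages, and Kitl on progenitors and mast cells.

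Total RNA was sequenced in bulk from sorted cells of 12-week-old NOD mice, a strain with autoimmune diabetes. TG+ mice carry Ins2-CCL21, a transgene that an insulin promoter drives in beta cells to make the chemokine CCL21, and TG- mice are NOD/ShiLtJ without it. The 27 libraries were labelled as leukocytes of islet infiltrates (CD45, 4 TG+ and 4 TG-), as islet stroma with high gp38 (2 TG+ and 2 TG-) or low gp38 (4 of each genotype), and as FRCs from lymph nodes draining the skin (3 TG+ and 4 TG-). Whether each library is a separate animal is not in the labels, so a p-value here sets differences against a spread among libraries that may be technical.

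The sort genes went against the label in 14 of 27 libraries, so each is called the library labelled with its group. Ptprc encodes CD45 and Pdpn encodes gp38. The higher of this pair was not the one labelled in 7 of 8 CD45 libraries, 5 of 7 FRC libraries, 1 of 4 gp38-high libraries and 1 of 8 gp38-low libraries. Libraries held 8517844 to 25194443 reads in genes. CPM scales each library to the same total of these reads. A gene listed at 0 could still have a level of 3 counts, which is 0.119 to 0.352 CPM by library and covers counting error only.

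Libraries were therefore described in 4 classes set by expression, whatever their label. The Ccl21a-high class (over 1000 CPM of this reticular chemokine) held 7 libraries, 3 labelled TG+ and 4 TG-. The Msln-high class (over 100 CPM of mesothelin) held 4, of which 1 was TG+ and 3 TG-. The remaining stromal class held 8, of which 6 were TG+ and 2 TG-. The Ptprc-high class (over 100 CPM) held 8, of which 3 were TG+ and 5 TG-. With all 3 thresholds at 2 times their value 1 library changed class, and at 0.5 times none did. The lowest Ccl21a inside its class was 2162 CPM and the highest outside 5.28 CPM, the lowest Msln inside was 573 CPM and the highest outside 2.52 CPM, and the lowest Ptprc inside was 169 CPM and the highest outside 5.79 CPM.

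Cell type markers other than the class genes describe what the classes held. Summed without Ccl21a, the FRC markers Ccl19, Cxcl13, Bst1 and Ch25h were 1123 to 1709 CPM in the Ccl21a-high class and at most 170.2 CPM elsewhere. That class was also highest in summed pericyte markers (Rgs5, Notch3, Cspg4, Tagln), at 1859 to 3131 CPM. Summed without Msln, the mesothelial markers Upk3b, Lrrn4 and Krt19 were 2805 to 4015 CPM in the Msln-high class and at most 146 CPM elsewhere. Summed adventitial fibroblast markers were 2506 to 4881 CPM in the remaining class, 1445 to 1939 CPM in the Msln-high class and 104 to 500 CPM in the Ccl21a-high class. The remaining class also held 155 to 2153 CPM of summed ductal and 41.2 to 4178 CPM of summed acinar markers. T cell, B cell and macrophage markers were summed at 554 to 1220, 817 to 1730 and 1091 to 7682 CPM in the Ptprc-high class, against at most 11.2, 6.74 and 25.5 CPM in the 19 stromal libraries. The classes were cut from the same expression data as the members, so differences between them are described without a test. In bulk RNA fewer cells of a type and less RNA per cell cannot be told apart.

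Promoter sequence is shown for 4 ligands because a pair of them, Tnfsf13b and Flt3l, was highest in the same class and holds the same 10 letters just before a transcript start, and because Csf1 and Kitl share another motif. The RefSeq table (GRCm38.p6) held 7 of the 10 members, not Il7, Il15 and Il34. The 250 bases before each start were searched on both strands for GAAANNGAAA (the interferon response core), TATAAA (a core promoter element), GTGGGAA (bound by the Notch partner RBPJ) and the kappaB motif, which binds NF-kappaB. The GAAANNGAAA match of Tnfsf13b lies 16 to 7 bases before the start of its second listed transcript (chr8:10006603-10006632, plus strand), and that of Flt3l lies on the opposite strand in the last 10 bases before its start (chr7:45136433-45136682, minus strand). Capitals mark the matches.
Tnfsf13b: atcttacaaaaactGAAAGTGAAAtgcgga
Flt3l: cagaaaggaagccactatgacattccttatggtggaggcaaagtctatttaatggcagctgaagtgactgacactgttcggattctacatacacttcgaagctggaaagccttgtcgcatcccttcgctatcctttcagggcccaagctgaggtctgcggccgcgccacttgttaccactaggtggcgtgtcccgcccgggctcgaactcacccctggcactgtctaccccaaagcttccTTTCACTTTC
The kappaB match of Csf1 (chr3:107760470-107760719, minus strand) reads GGGACTTTCC on the opposite strand, and that of Kitl (chr10:100015571-100015820, plus strand) reads GGGATCTTCC there. Kitl also holds TATAAA, at 25 to 20 bases before its start.
Csf1: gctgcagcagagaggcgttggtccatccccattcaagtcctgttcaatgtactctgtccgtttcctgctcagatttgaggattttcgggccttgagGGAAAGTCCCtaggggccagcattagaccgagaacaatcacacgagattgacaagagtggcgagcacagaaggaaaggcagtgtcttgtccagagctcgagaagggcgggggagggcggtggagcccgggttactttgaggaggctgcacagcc
Kitl: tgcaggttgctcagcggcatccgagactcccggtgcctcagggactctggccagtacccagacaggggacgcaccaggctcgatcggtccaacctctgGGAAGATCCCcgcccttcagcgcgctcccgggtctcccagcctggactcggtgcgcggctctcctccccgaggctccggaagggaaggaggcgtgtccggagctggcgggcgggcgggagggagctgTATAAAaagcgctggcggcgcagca
Among 32851 promoter windows of that length, 2.98% held GAAANNGAAA, 7.25% the kappaB motif, 12.4% TATAAA and 5.42% GTGGGAA. Il33 held TATAAA in the windows of both its listed starts, Il7r and Il1rl1 held none of the 4 motifs, and no member held GTGGGAA. The motifs and these 4 ligands were chosen with their levels known, and a match describes letters, not a bound site.

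Il7, Tnfsf13b and Flt3l stood highest in the Ccl21a-high class, in which each of them was higher in all 7 libraries than in any of the other 20. That is 3 of 10 members, where 4.66% of 16797 genes above 1 CPM in at least 4 libraries did the same. In the Msln-high and remaining classes 0 members did so (9.63% and 3.01% of genes). The plot of members by class shows these levels.

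**Figure D1:**
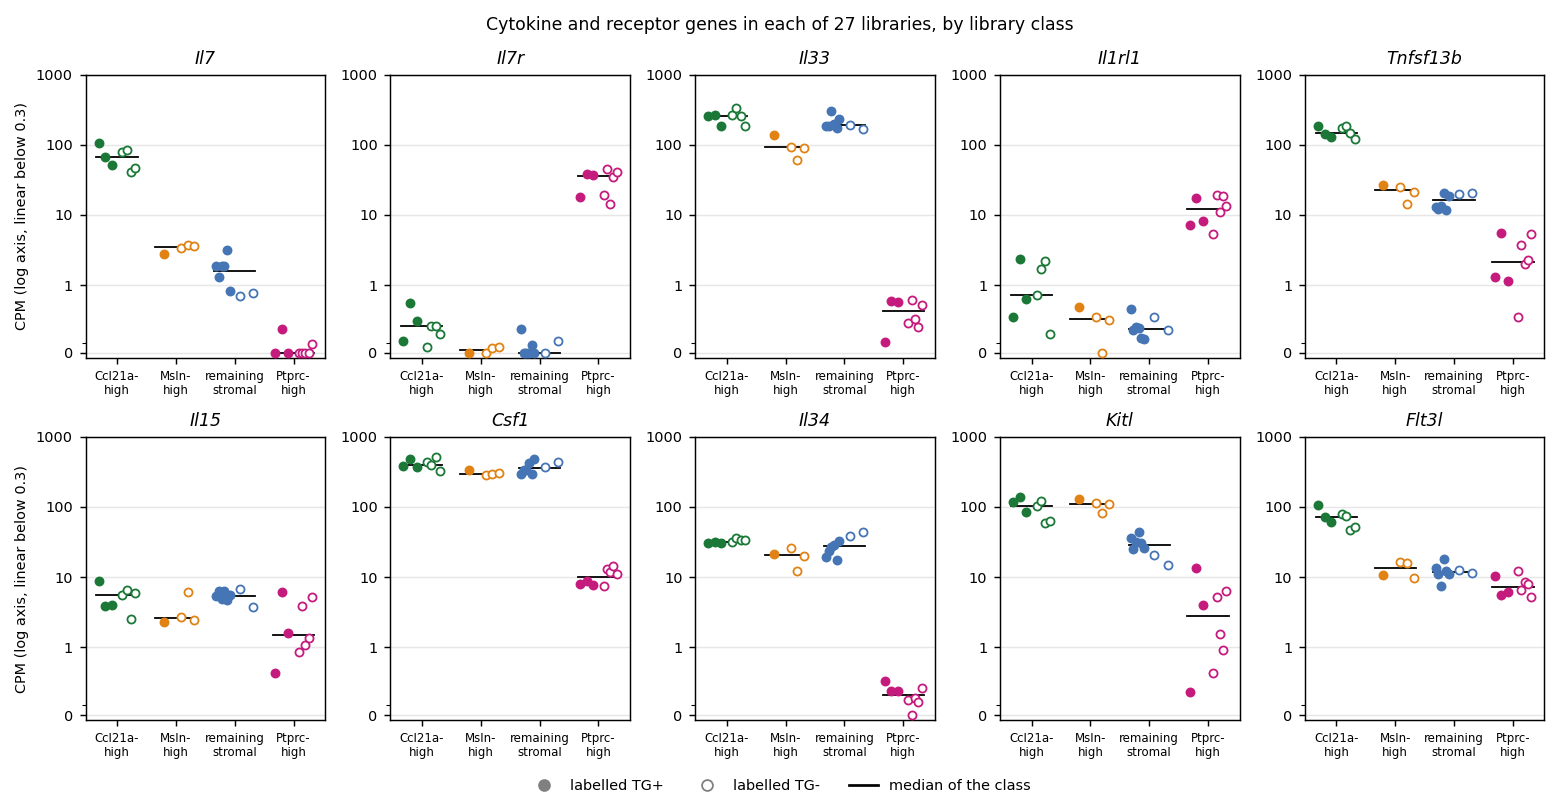
CPM (log axis that is linear below 0.3) of the 10 members in each of 27 libraries, by library class. Filled points are libraries labelled TG+, open points TG-, and bars the class median. Il7, Tnfsf13b and Flt3l are highest in the 7 Ccl21a-high libraries, and Il7r and Il1rl1 in the 8 Ptprc-high libraries.

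Il7 (ENSMUSG00000040329.14, chromosome 3, 7569994 to 7613760, minus strand, GRCm38) encodes interleukin-7. In the Ccl21a-high class it was 104, 67.3 and 50.9 CPM in the libraries labelled CD45 TG+ replicate 3 and gp38-low TG+ replicates 1 and 3. It was 79.3, 85.4 and 41.4 CPM in CD45 TG- replicates 1, 2 and 3, and 45.9 CPM in gp38-low TG- replicate 3. Every Ccl21a-high library lay above every library of the other classes, and the lowest were CD45 TG- replicate 3 and gp38-low TG- replicate 3. The class averaged 67.8 ± 23.3 CPM (SD, n = 7), against 3.38 ± 0.398 CPM in the Msln-high class (n = 4) and 1.55 ± 0.828 CPM in the remaining class (n = 8). Its median was 19.2 times the Msln-high median and 42.7 times the remaining one. In the Ptprc-high class Il7 was 0 in 6 of 8 libraries and 0.235 and 0.0870 CPM in the other two, so against 3 counts the Ccl21a-high median was at least 272-fold higher. The antisense gene Gm16685 overlaps Il7, and the counts used are from the strand of Il7.

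Tnfsf13b (ENSMUSG00000031497.9, chromosome 8, 10006467 to 10039072, plus strand) encodes BAFF. It ranged from 119 to 182 CPM with a median of 148 CPM in the Ccl21a-high class. The 4 Msln-high libraries had 26.5 CPM (CD45 TG+ replicate 1), 24.8 CPM (FRC TG- replicate 2), 14.3 CPM (gp38-high TG- replicate 1) and 20.8 CPM (gp38-low TG- replicate 4). The 8 remaining libraries ran from 11.8 to 20.6 CPM, and these ranges overlapped. The Ptprc-high libraries had 0.354 to 5.52 CPM, with a median of 2.14 CPM. The Ccl21a-high median was 6.47 times the Msln-high median, 9.18 times the remaining one and 68.8 times the Ptprc-high one.

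Flt3l (ENSMUSG00000110206.1, chromosome 7, 45129788 to 45136432, minus strand) encodes the FLT3 ligand, which drives dendritic cell development. Its Ccl21a-high range was 47.1 to 105 CPM, with a median of 71.4 CPM. The other stromal classes had 9.58 to 16.5 CPM (Msln-high, median 13.3) and 7.56 to 18.3 CPM (remaining, median 12.0). Unlike the other 2 members of this group, it did not separate those classes from the leukocyte libraries, which had 5.13 to 12.3 CPM. Gm45713 overlaps Flt3l on the same strand, so reads shared by both genes were not counted for either.

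Il33, Csf1 and Il34 were high in all 3 stromal classes and near the floor or low in the Ptprc-high class. With Il7, Tnfsf13b and Kitl they made 6 of 10 members that were lower in every Ptprc-high library than in any other, as were 18.9% of the 16797 genes.

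Il33 (ENSMUSG00000024810.16, chromosome 19, 29925114 to 29960718, plus strand) encodes interleukin-33, a nuclear cytokine released from damaged stromal cells. It was 186 to 339 CPM in the Ccl21a-high class (median 255), and 140, 94.1, 59.9 and 90.6 CPM in the Msln-high libraries in the order given for Tnfsf13b. It was 170 to 302 CPM in the remaining class (median 189), and 0.109 to 0.622 CPM in the Ptprc-high class (median 0.423). The Ccl21a-high and remaining ranges overlapped, and both lay above the Msln-high range. Its Ccl21a-high median was 602 times the Ptprc-high one, whose libraries were near the floor of 3 counts.

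Csf1 (ENSMUSG00000014599.10, chromosome 3, 107741048 to 107760469, minus strand) encodes macrophage colony-stimulating factor. Its ranges of 326 to 516, 284 to 341 and 290 to 476 CPM in the Ccl21a-high, Msln-high and remaining classes overlapped, with medians of 391, 297 and 354 CPM. In the Ptprc-high class it was 7.37 to 14.6 CPM, with a median of 9.99 CPM. Il34 (ENSMUSG00000031750.15, chromosome 8, 110741829 to 110805924, minus strand) encodes interleukin-34, another ligand of the CSF1 receptor. It was 30.3 to 36.5 CPM in the Ccl21a-high class, 12.1 to 25.99 CPM in the Msln-high class, 17.6 to 44.1 CPM in the remaining class and at most 0.326 CPM in the Ptprc-high class. Its Ccl21a-high libraries spanned the smallest ratio of the members there and lay wholly above the Msln-high libraries. The antisense genes Gm15894 and Gm15895 overlap Il34.

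Kitl (ENSMUSG00000019966.18, chromosome 10, 100015630 to 100100416, plus strand) encodes stem cell factor. It was high in 2 of the 3 stromal classes, at 58.5 to 137 CPM in the Ccl21a-high class (median 103) and 131, 112, 82.5 and 109 CPM in the Msln-high libraries. The remaining class had 14.7 to 43.4 CPM (median 28.3), below every library of the other 2 stromal classes. The Ccl21a-high median was 3.64 times, and the Msln-high median 3.91 times, that of the remaining class. In the Ptprc-high class it was 0.218 to 13.3 CPM.

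Il15 (ENSMUSG00000031712.10, chromosome 8, 82331632 to 82403222, minus strand) encodes interleukin-15, which sustains natural killer and memory CD8 T cells. It was the lowest ligand per length in the Ccl21a-high class and did not separate any class. It ran from 2.55 to 8.69 CPM in the Ccl21a-high class, 2.25 to 6.03 CPM in the Msln-high class, 3.68 to 6.71 CPM in the remaining class and 0.435 to 6.10 CPM in the Ptprc-high class.

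Within the Ptprc-high class Il15, Tnfsf13b and Kitl differed most between libraries. The library labelled FRC TG+ replicate 3 had 6.10 CPM of Il15, 5.52 CPM of Tnfsf13b and 13.3 CPM of Kitl, the class maximum for each. Its summed macrophage markers (Adgre1, Cd68, Lyz2, Mrc1, C1qa) were 7682 CPM, the highest of the class, and its summed FRC and lymphatic endothelial markers were 172 and 219 CPM, also the highest of the class. These last sums rest mainly on 1 gene each, Cxcl13 (up to 150 CPM in the class) and Lyve1 (up to 216 CPM). Ccl19, Prox1 and Flt4 were at most 0.704, 2.02 and 2.78 CPM in the class. The library labelled CD45 TG- replicate 4 had 0.850, 0.354 and 0.425 CPM of the same ligands, with 1091, 4.60 and 10.6 CPM of the same marker sums. Which cells gave these marker sums, and their part in the ligand levels, was not tested.

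The receptor genes among the members had the opposite distribution. Il7r and Il1rl1 were higher in every Ptprc-high library than in any of the 19 stromal libraries, as were 12.5% of the 16797 genes. Il7r (ENSMUSG00000003882.5, chromosome 15, 9505788 to 9530176, minus strand) encodes the interleukin-7 receptor alpha chain, found on T cells and innate lymphoid cells. It was 18.3, 38.0 and 37.4 CPM in FRC TG+ replicates 2, 3 and 4. It was 19.1 CPM in CD45 TG- replicate 4, 44.8 and 14.4 CPM in FRC TG- replicates 3 and 4, 34.6 CPM in gp38-high TG- replicate 2 and 40.5 CPM in gp38-low TG- replicate 1. The 19 stromal libraries had at most 0.552 CPM. The Ptprc-high median of 36.0 CPM was 141 times that of the Ccl21a-high class, and at least 216-fold and 183-fold higher than those of the Msln-high and remaining classes, which were at or below 3 counts.

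Il1rl1 (ENSMUSG00000026069.15, chromosome 1, 40429570 to 40465415, plus strand) encodes ST2, the interleukin-33 receptor of regulatory T cells, type 2 innate lymphoid cells and mast cells. Its Ptprc-high range was 5.31 to 19.4 CPM (median 12.2), against 0.183 to 2.36 CPM in the Ccl21a-high class (median 0.731), at most 0.492 CPM in the Msln-high class and 0.137 to 0.461 CPM in the remaining class. The Ptprc-high median was 16.7 times the Ccl21a-high median and 52.8 times the remaining one. Summed regulatory T cell markers in the Ptprc-high class were 34.7 to 112 CPM and summed mast cell markers 0.371 to 12.5 CPM. The markers of type 2 innate lymphoid cells (Gata3, Rora, Areg) summed to 32.6 to 53.0 CPM there, against medians of 60.9, 97.0 and 147 CPM in the Ccl21a-high, Msln-high and remaining classes, where Rora alone had medians of 58.5, 94.0 and 146 CPM.

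The ratio of Il7r to Ptprc, the gene that defines the class, varied less than the level of Ptprc. How many other genes kept as narrow a ratio was not counted. Il7r did not rise with T cell markers. FRC TG+ replicate 2, with the highest T cell sum of the class (1220 CPM), had 18.3 CPM of Il7r. FRC TG+ replicate 3, with the lowest (554 CPM), had 38.0 CPM. Per kb of exon Il7r was 23.5% to 33.4% of Ptprc across the 8 Ptprc-high libraries, a 1.42-fold range, while Ptprc per kb varied 4.01-fold. Il1rl1 was 3.82% to 17.2% of Ptprc, a 4.51-fold range, and Csf1r varied 10.6-fold on the same scale. The highest Il1rl1 ratio was in the library labelled FRC TG- replicate 4 and the lowest in FRC TG+ replicate 4.

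Levels of different genes can be compared per length only, so CPM was divided by the kb of annotated exon. On this scale Il33 and Csf1 led in the Ccl21a-high class, at medians of 88.2 and 74.1 CPM per kb, with overlapping ranges of 64.4 to 117 and 61.8 to 97.8. Tnfsf13b (21.5), Flt3l (18.4), Kitl (17.4), Il34 (16.2) and Il7 (11.9 CPM per kb) followed, and each of these ranges overlapped that of the next. Il15 came after a gap, at 2.46 CPM per kb with a range of 1.13 to 3.84, below the lowest Il7 value of 7.30. In the Msln-high class the order was Csf1 (56.2), Il33 (32.0), Kitl (18.7) and Il34 (10.5 CPM per kb), and Il7 was 0.620. In the remaining class Csf1 (67.0) and Il33 (65.6) were again at the top with overlapping ranges, Il34 was next at 14.2, and Il7 was 0.278 CPM per kb. In the Ptprc-high class Il7r was the highest member, at 7.72 CPM per kb with a range of 3.08 to 9.60, above the whole range of Csf1 (1.40 to 2.76), the next in order, and overlapping Flt3l (1.32 to 3.18).

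**Figure D2:**
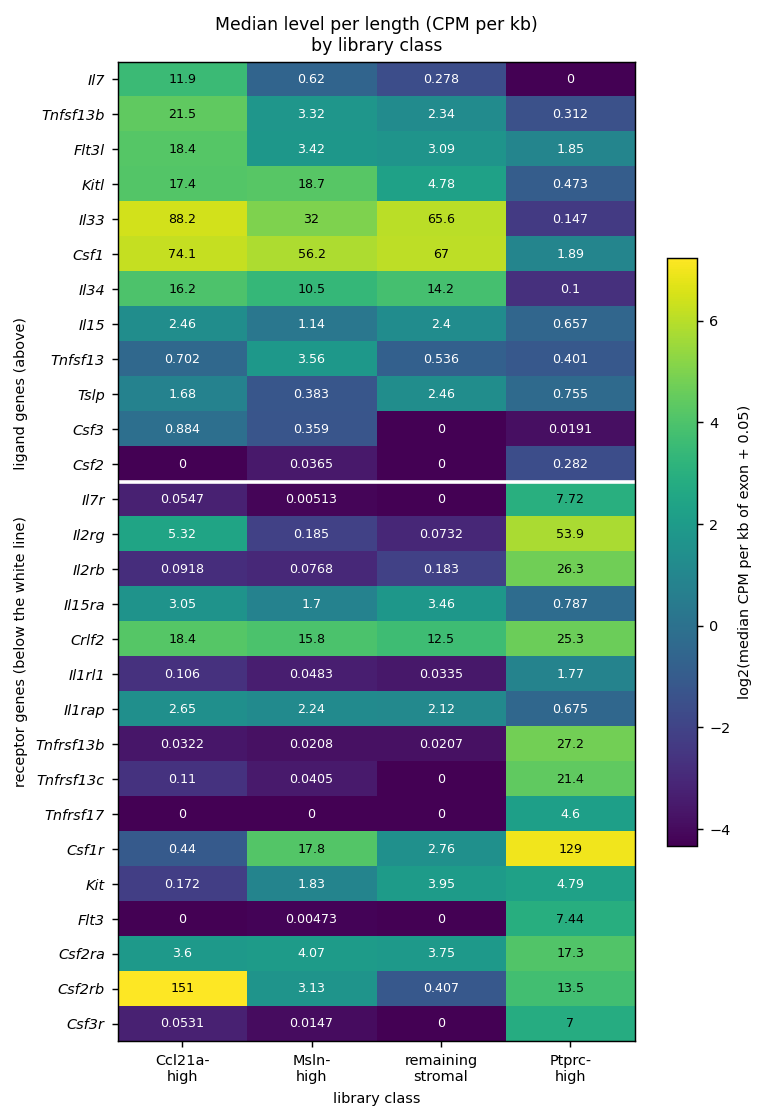
Median CPM per kb of exon for 12 ligand genes (above the white line) and 16 receptor genes (below it) in the 4 library classes, with colour on the scale log2(value + 0.05). Il33 and Csf1 are the highest of the 8 member ligands in each of the 3 stromal classes, and Il7r, Il1rl1, Il2rg, Il2rb, Csf1r and Flt3 are highest in the Ptprc-high class.

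For 6 pairs the order of ligand and receptor per kb was reversed between the stromal and the Ptprc-high libraries. Il7 with Il7r, Il33 with Il1rl1, Tnfsf13b with the BAFF receptor Tnfrsf13c, Il15 with the beta chain Il2rb, Csf1 with Csf1r, and Flt3l with Flt3 each had the ligand above the receptor per kb in all 19 stromal libraries. In all 8 Ptprc-high libraries these ligands were below their receptors. For Il7 and Il7r the medians were 11.9 and 0.0547 CPM per kb in the Ccl21a-high class, against 0 and 7.72 CPM per kb in the Ptprc-high class. For Csf1 and Csf1r they were 74.1 and 0.440 CPM per kb, against 1.89 and 129 CPM per kb. The ligands Il15 and Flt3l themselves overlapped in level between the Ptprc-high and stromal libraries. Il2rb also serves interleukin-2. Il15ra, unlike Il2rb, was higher in stroma. Its medians were 13.5, 7.58 and 15.4 CPM in the Ccl21a-high, Msln-high and remaining classes, against 3.50 CPM in the Ptprc-high class.

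Csf1r and Kit were also present in stromal libraries. Csf1r, which was 267 to 1139 CPM in the Ptprc-high class, was 92.3 to 105 CPM in the 4 Msln-high libraries, 1.92 to 3.96 CPM in the Ccl21a-high class and 4.13 to 28.8 CPM in the remaining class. Summed macrophage markers in the Msln-high libraries were 19.9 to 25.5 CPM, with 2 of 5 genes at a class median above 1 CPM, Cd68 giving 16.3 to 20.9 CPM and Adgre1 at most 0.0584 CPM, and their part in Csf1r was not tested. There Il34 was below Csf1r per kb in all 4 libraries, whereas Csf1 was above it. Kit, the stem cell factor receptor, was 3.57 to 54.1 CPM in the remaining class and 4.99 to 81.8 CPM in the Msln-high class, against 1.14 to 4.26 CPM in the Ccl21a-high class. Kitl was above Kit per kb in 6 of 8 remaining libraries and in all 11 libraries of the other stromal classes. The highest Kit of the stromal libraries, 81.8 CPM, was in the library labelled gp38-high TG- replicate 1, whose summed ductal markers (Sox9, Spp1, Krt7) were 1911 CPM. The lowest of the Msln-high and remaining libraries, 3.57 CPM in gp38-low TG- replicate 2, came with 155 CPM of ductal markers. The highest ductal sum, 2153 CPM, was in CD45 TG+ replicate 2, of the remaining class, where Kit was at most 54.1 CPM. Summed mast cell markers were at most 0.0630 CPM in those 12 libraries. The part of any cell type in these Kit levels was not tested.

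**Figure D3:**
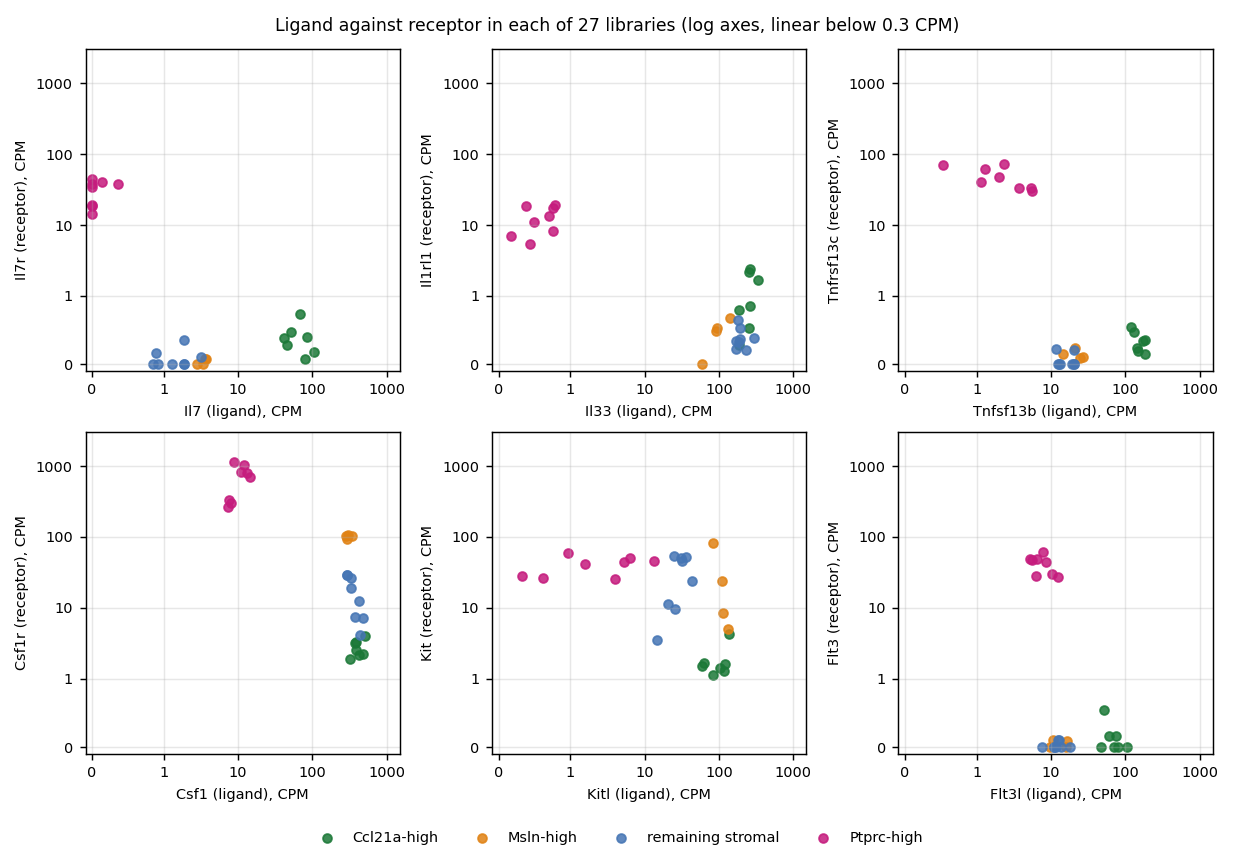
Receptor gene (vertical axis) against ligand gene (horizontal axis) in CPM for 6 pairs, with log axes that are linear below 0.3 CPM. Each point is 1 of 27 libraries, coloured by class. Ptprc-high libraries sit at high receptor and low ligand values and stromal libraries at the reverse, with exceptions. Csf1r reaches 92.3 to 105 CPM in the Msln-high class and Kit up to 81.8 CPM in stromal libraries. Flt3l in the Ptprc-high class, at 5.13 to 12.3 CPM, overlaps its ranges in the Msln-high and remaining classes.

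The list of 26 partner genes of the same pathways held further receptors, ligands and signalling genes. In the Ptprc-high class 11 of 26 were higher than in any other library, against the 12.5% of all genes given above. They were the receptor genes Il2rg (94.6 to 163 CPM), Il2rb (83.8 to 170 CPM), Crlf2, Tnfrsf13b, Tnfrsf13c, Tnfrsf17, Csf1r, Csf2ra, Csf3r and Flt3, and the kinase gene Jak3. Il2rg, the common gamma chain that pairs with the interleukin-7 receptor, was also 7.08 to 19.1 CPM in the Ccl21a-high class, above its 0 to 0.478 CPM in the other 2 stromal classes. In the Msln-high class 1 of 26 was highest, where 9.63% of all genes were. It was Tnfsf13, which encodes the BAFF relative APRIL and had 5.22 to 7.94 CPM against at most 1.84 CPM elsewhere. Tnfsfm13 overlaps Tnfsf13 on the same strand, and Gm20489 overlaps Il2rg. Reads shared by both genes of such a pair were not counted for either, so these levels can be too low.

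In the Ccl21a-high class 2 of 26 partner genes were highest, where 4.66% of all genes were. Csf3, which encodes granulocyte colony-stimulating factor, was at 0.822 to 2.94 CPM. Its lowest value there, 0.582 CPM per kb, was close to the highest Msln-high value, 0.559 CPM per kb. Csf2rb is the common beta chain of the GM-CSF, interleukin-3 and interleukin-5 receptors. It was 911 to 1256 CPM in the Ccl21a-high class, 12.1 to 30.04 CPM in the Msln-high class, 0.945 to 4.13 CPM in the remaining class and 48.4 to 104 CPM in the Ptprc-high class. Its near-identical copy Csf2rb2 had 578 to 877 CPM in the Ccl21a-high class, so the share of each gene is uncertain. Csf2ra, the alpha chain that binds GM-CSF, was 9.34 to 12.7 CPM there, and the ligand gene Csf2 was at most 0.638 CPM. Il15ra, which presents interleukin-15, was 9.32 to 19.5 CPM in the Ccl21a-high class, 5.84 to 10.96 CPM in the Msln-high class, 12.7 to 19.6 CPM in the remaining class and 1.85 to 6.87 CPM in the Ptprc-high class. Jak1, Mcl1, Myd88, Bcl2 and Il1rap, which act in many cell types, separated no class upward. Unlike Il1rl1, the receptor gene Il1rap was lower in every Ptprc-high library (3.24 to 11.3 CPM) than in any stromal library (15.3 to 37.2 CPM).

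The genes whose profile over the 27 libraries was most like a ligand's were found by Spearman correlation of log2 CPM among 10760 genes. Libraries of a class share composition and depth, so these values are a description. Nearest to Il7 were Palld (0.979), Ankrd29 (0.979) and Map3k20 (0.976), and to Tnfsf13b Enpp2 (0.975), Slc10a6 (0.974) and C3 (0.973). Il33 was nearest to Limch1 (0.970), Gpc6 (0.965) and Prrx1 (0.964), and Kitl to Trim2 (0.973), Cald1 (0.966) and Gucy1a1 (0.962). For Csf1 they were Spsb1 (0.961), Map7d1 (0.938) and Plod3 (0.937), for Il34 Mmp23 (0.940), Ftsj1 (0.937) and Gstm1 (0.935), and for Flt3l Adcy4 (0.910), Adamts10 (0.908) and Klhdc8b (0.902). Il15 had no gene as near, with Rin2 (0.778), Mfsd8 (0.770) and Btbd3 (0.759) at its top.

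Within a class, libraries labelled TG+ and TG- mostly overlapped. In the Ccl21a-high class 9 of 10 members overlapped. Il34 was 30.3, 31.4 and 30.4 CPM in the 3 TG+ libraries and 31.8, 36.5, 33.9 and 33.4 CPM in the 4 TG- libraries, a separation in which TG+ lay below, as for 0.732% of the 16797 genes (1.51% lay above). Il7 there was 50.9 to 104 CPM in TG+ and 41.4 to 85.4 CPM in TG- libraries. In the Ptprc-high class all 10 overlapped, where 0.375% of genes lay wholly above and 2.39% wholly below in TG+. Il7r there was 18.3 to 38.0 CPM in TG+ and 14.4 to 44.8 CPM in TG- libraries.

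In the remaining class 6 TG+ libraries stood against 2 TG- libraries. Il7 (0.823 to 3.17 CPM in TG+, 0.706 and 0.781 CPM in TG-) and Kitl (24.8 to 43.4 CPM in TG+, 20.5 and 14.7 CPM in TG-) lay above, as did 28.5% of genes. Il34 (17.6 to 33.1 CPM in TG+, 37.9 and 44.1 CPM in TG-) lay below, as did 11%. Summed ductal markers were 424 to 2153 CPM in these TG+ libraries and 438 and 155 CPM in the TG- libraries, and their part in these values was not tested. The Msln-high class had 1 TG+ library, so no such reading was made there.

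Differences between labelled groups were tested with edgeR's quasi-likelihood test, with Benjamini-Hochberg adjustment over all genes tested, and a call needed an adjusted p under 0.05. The 4 genotype comparisons and 4 population comparisons called 0 of 10 members, and 0% of genes in each. At an unadjusted p under 0.05 the same fits held 273 to 6639 genes of 13819 to 19010 tested. With the labels this mixed, each labelled group held libraries of several classes, as the plot by labelled group shows.

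For the transgene in the libraries labelled CD45, Il1rl1 had the smallest p of the 9 members tested. It was 0.492, 0.461, 0.355 and 0.217 CPM (7, 8, 6 and 4 counts) in the TG+ libraries numbered 1 to 4. The TG- libraries had 0.731, 1.70, 2.17 and 5.31 CPM. The log2 difference was -3.05 ± 0.751 (SE; edgeR, adjusted p = 0.506), and DESeq2 called it (adjusted p = 0.00667), as it called 2.87% of genes. The highest TG- value was in the only library labelled CD45 that held high Ptprc. The other 3 TG- libraries are of the Ccl21a-high class, as is 1 TG+ library, so class and genotype cannot be told apart here. Tnfsf13b differed by -1.17 ± 1.43 and Flt3l by -0.69 ± 0.908 (adjusted p = 0.781 and 0.796). Limma-voom with quality weights called 5 members lower (Il7, Il1rl1, Tnfsf13b, Kitl and Flt3l), where it called 41.6% of genes. Il7r did not pass the filter on low counts in the edgeR fit. Over the members tested the median log2 difference was -0.30, against -0.047 over all genes tested.

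For the libraries labelled FRC, Csf1 was 7.94, 8.92 and 7.59 CPM in TG+ replicates 2, 3 and 4, and 376, 284, 13.1 and 11.9 CPM in TG- replicates 1 to 4. TG- replicates 1 and 2, which are the high ones, held 20.1 and 24.8 CPM of Tnfsf13b and are of the remaining and Msln-high classes. The other 2 TG- libraries and all 3 TG+ libraries are of the Ptprc-high class. The log2 difference was -4.17 ± 1.41 (edgeR, adjusted p = 0.696), and DESeq2 called it (adjusted p = 0.0131), as it called 3.97% of genes. Tnfsf13b in the same order was 1.31, 5.52 and 1.15 CPM (TG+) against 20.1, 24.8, 3.73 and 2.0 CPM (TG-), which overlapped. Its log2 difference was -2.08 ± 1.01 (adjusted p = 0.714). Il7, Il33 and Il34 did not pass the filter.

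For the libraries labelled gp38-low, Flt3l, Il33 and Kitl differed by 0.86 ± 0.961, 0.78 ± 1.15 and 0.57 ± 0.887 (log2, TG+ minus TG-; edgeR, adjusted p = 0.999 each), all within their errors. Il7r and Il1rl1 did not pass the filter there. For those labelled gp38-high, Il33 was 302 and 196 CPM in the TG+ libraries, against 59.9 and 0.247 CPM in the TG- libraries, a log2 difference of 3.33 ± 2.08 (adjusted p = 0.663). Il7r was 0 in both TG+ libraries and 0.0478 and 34.6 CPM in the TG- ones, the last of which is a Ptprc-high library.

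Between populations the members came nearest to a call for gp38-low minus FRC. Tnfsf13b was 142, 11.8, 130 and 18.9 CPM in gp38-low TG+ and 5.39, 20.3, 119 and 20.8 CPM in gp38-low TG- libraries, against the FRC values above, a log2 difference of 3.33 ± 0.867. Csf1 and Il7 differed by 3.10 ± 0.865 and 6.18 ± 1.79 (edgeR, adjusted p = 0.0943 for each of the 3). In this comparison 8 of 10 members leaned to gp38-low, with Il7r and Il1rl1 the other way. The members' median was 2.57, against 0.15 over all genes tested. DESeq2 called 7 members (26% of genes) and limma-voom with quality weights 8 (47% of genes). Without gp38-low TG- replicate 1, a Ptprc-high library, edgeR called 8 members (29.3% of genes), and without FRC TG- replicate 1, a stromal one, it called 3 (7.49%). Once every library whose sort genes go against its label was left out, 0 members and 0% of genes were called, and Il7 differed by 3.83 ± 1.93 (edgeR, adjusted p = 0.9998).

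For gp38-high minus gp38-low the 10 members had a median log2 difference of -1.31, against -0.030 over all genes tested, and several lay within their errors, such as Il15 at -0.26 ± 0.576. Tnfsf13b differed by -2.62 ± 1.03 (edgeR, adjusted p = 0.9999). For gp38-high minus FRC, Il33 differed by 3.55 ± 1.45 (edgeR, adjusted p = 0.290). DESeq2 called Il7r in both comparisons, with 0.799% and 4.01% of genes. For CD45 minus stromal labels, Il7, Tnfsf13b and Flt3l had positive log2 differences of 4.15 ± 1.17, 2.48 ± 0.723 and 1.56 ± 0.488 (edgeR, adjusted p = 0.250 each), which is toward the libraries labelled leukocytes. DESeq2 called 2 of these (Il7 and Tnfsf13b; 1.59% of genes) and limma-voom with quality weights 7 members (38.7% of genes). Of the 8 libraries labelled CD45, 4 are of the Ccl21a-high class. With the libraries whose sort genes go against their label left out, 1 CD45 library, a Ptprc-high one, stood against 12 of the stromal classes. Since Ptprc and Pdpn chose the libraries of that fit, its calls (7 of 10 members, 35.4% of 19087 genes) are no test between leukocytes and stroma.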

How the data were processed

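Expression was measured in 27 libraries, grouped by the title and genotype in their labels. The authors deposited raw read counts per gene for each library. The submitters' processing notes name STAR 2.5.2a, Trim Galore 0.4.3, bcl2fastq 2.17 and the build mm10. The release of their gene models is not given in the sources used. Cells were sorted into TRIzol and libraries made after ribosomal RNA removal, per the labels' protocols.

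The reverse-strand count column was used, since the forward one held 6.67% to 15.3% of the reads on both strands. The 4 lines that name no gene took 51.7% to 79.7% of all reads and were left out. Of 54446 identifiers, 54409 matched GENCODE M21, ignoring version numbers. CPM scales reads in genes to the same total in each library, and CPM per kb divides it by the union of annotated exons. The gene with the most reads, the non-coding Gm26917, took 5.31% to 36.0% of that total and lowered the CPM of other genes unevenly. Depth was 8517844 to 25194443 reads in genes. Among all 351 pairs of libraries, within and across groups, none agreed within sampling noise (chi-square per degree of freedom at least 6.45).

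Labelled groups were compared with edgeR 4.0.16 in R 4.3.3 (TMM, filterByExpr, robust quasi-likelihood F test, Benjamini-Hochberg adjustment over all genes at 0.05). The fits for CD45, gp38-low and FRC genotypes held those libraries alone, gp38-high genotypes the 12 islet stromal libraries, stromal populations the 19 libraries labelled stromal with genotypes weighted equally, and CD45 minus stromal all 27. Each SE came from dividing the log2 difference by the root of its F statistic. Alternatives were DESeq2 1.42.0, limma-voom (limma 3.58.1) with quality weights, other size factors, no filter, unstranded counts, the top gene left out, all libraries fitted, the replicate number as a block, and libraries left out. The procedure was tested on counts simulated around a common mean per gene for the libraries labelled gp38-low, with planted changes. That simulation held no mix of library classes, so it cannot show how the fits behave in such groups. Python 3.11.15, pandas 2.3.3 and matplotlib 3.10.9 were used.

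The text names the 10 members, 26 partner genes, sort and class genes, cell type markers, and the 3 genes nearest each ligand by Spearman correlation of log2 CPM (prior count 2) among genes with a mean log2 CPM of at least 2. For each comparison the members with the smallest p were named after their values were seen. Members, classes and lists were chosen with earlier results of these data known.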

Additional observations from a re-analysis of the deposited data

Results flagged for a closer look

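Within groups of 4 to 10 libraries, the gap between an extreme library and its neighbour was set against the group's range on the log2(CPM + 0.5) scale. Of 90 combinations of a member and a group, 16 held a library set apart (17.8%), where chance gives about 1 in 20 if they are independent. They are not, since 1 library can stand apart for several members. Most of these flags lie in labelled groups that mix library classes.

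The library labelled CD45 TG- replicate 4, the Ptprc-high one of its group, stood apart for 7 members. It had 0 CPM of Il7 (other 3 libraries 41.4 to 85.4), 19.1 CPM of Il7r (0.0562 to 0.258), 0.283 CPM of Il33 (253 to 339), 0.354 CPM of Tnfsf13b (148 to 182), 7.37 CPM of Csf1 (391 to 516), 0.142 CPM of Il34 (31.8 to 36.5) and 0.425 CPM of Kitl (58.5 to 122). The library labelled gp38-low TG- replicate 1, also Ptprc-high, stood apart for 4. It had 40.5 CPM of Il7r (0.0526 to 0.183), 0.522 CPM of Il33 (90.6 to 186), 13.4 CPM of Il1rl1 (0.183 to 0.316) and 11.05 CPM of Csf1 (301 to 433).

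The library labelled CD45 TG+ replicate 3, the Ccl21a-high one of its group, had 104 CPM of Il7 (1.30 to 2.81 in the other 3) and 105 CPM of Flt3l (10.7 to 13.5). Among the libraries labelled gp38-low TG+, replicate 2 had 17.6 CPM of Il34 (30.4 to 33.1).

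Inside the classes, gp38-high TG- replicate 1 had 6.03 CPM of Il15 among the Msln-high libraries (2.25 to 2.69 in the other 3), and it is also the library with 1911 CPM of summed ductal markers. FRC TG+ replicate 3 had 0.235 CPM of Il7 among the Ptprc-high libraries (0 to 0.0870). That is 2 counts, under the 3-count level of 0.352 CPM in this library. It also held 172 CPM of summed FRC markers, the highest of that class and mostly Cxcl13 (up to 150 CPM in the class).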

How the results depend on the processing

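The number of members higher in all libraries of 1 class than in any other library was 5 at the reported setting. It stayed within 1.5 times that count with other class thresholds, scaling, strand and each library left out (5 in each leave-one-out). The number of members called between labelled groups, 0 with edgeR, changed with the tool. DESeq2 called 1 member for CD45 TG+ minus TG-, 1 for FRC TG+ minus TG-, 1 for gp38-high minus gp38-low, 7 for gp38-low minus FRC, 1 for gp38-high minus FRC and 2 for CD45 minus stromal. Limma-voom with quality weights called 5 (CD45 TG+ minus TG-), 8 (gp38-low minus FRC) and 7 (CD45 minus stromal). Leaving out libraries against their label gave 7 for CD45 minus stromal, with 1 CD45 library assumed to vary like the others. The cause of these differences was not tested. With each library left out in turn, gp38-low minus FRC called 0 to 8 members and the other comparisons 0 to 0.

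Signs were followed across settings only for the few members with the smallest p in each comparison, and turned for 6 of these differences. Flt3l in gp38-low TG+ minus TG- was -0.11 with limma-voom. Il1rl1 in gp38-high TG+ minus TG- ran from -6.37 to 4.88 with 1 library left out, with 4.88 without TG- replicate 2, the Ptprc-high library. With libraries against their label left out, Csf1 was -0.079 for gp38-high minus FRC, and Il7, Tnfsf13b and Flt3l were -11.00, -6.71 and -0.69 for CD45 minus stromal. The Il7 value is set against a library with 0 counts and is no bound. In that fit of CD45 minus stromal the sign turned for every member, such as Il33 at -8.92 and Il7r at 7.85. For gp38-high minus FRC it also turned for Tnfsf13b, Il34, Kitl and Flt3l (-0.61, -0.65, -0.42 and -0.22). Il15 turned for gp38-high minus gp38-low (0.13) and for gp38-low minus FRC (-0.068).

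Deviations of same-numbered libraries from their labelled group had correlations of -0.913 to 0.828. For gp38-low TG+ against TG- all 4 were positive (0.0234 to 0.612). Since the labelled groups mix library classes, these correlations cannot show whether the numbers pair the samples. No pairing was used in the reported fits. With the replicate block 0 members were called in each of the 8 comparisons. Leaving out libraries against their label could not be done for genotypes within CD45 and FRC, where an arm was left empty. Levels under about 0.352 CPM are within 3 counts of 0, which limits Il7 and Il34 in Ptprc-high and Il7r in stromal libraries.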
